A study of Sminthopsis crassicaudata with 9 samples.

Results

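The genes described here are 10 genes of the contractile apparatus of skeletal muscle in the face of the newborn fat-tailed dunnart, *Sminthopsis crassicaudata*. They are the troponin T genes TNNT1 and TNNT3, the troponin I genes TNNI1 and TNNI2, the troponin C genes TNNC1 and TNNC2, the myosin light chain genes MYL1 and MYLPF, the skeletal actin gene ACTA1 and the muscle creatine kinase gene CKM. Of the 10, 9 were analysed here, among 21703 gene models in all, and TNNT1 was not analysed here. The genes were chosen by their RNA levels and by the H3K4me3 and H3K27ac peaks at and around their transcription start sites (TSS) in these same data. Levels and peaks are therefore given below as a description, with no test.

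A sarcomere shortens when myosin pulls on actin filaments, and troponin decides when it may. Troponin C binds calcium, troponin I blocks the actin filament in the absence of calcium, and troponin T ties the complex to tropomyosin. Fast-twitch and slow-twitch fibers build these parts from separate genes: TNNT3, TNNI2 and TNNC2 encode the fast forms, TNNT1, TNNI1 and TNNC1 the slow forms, and TNNC1 also serves the heart. MYL1 and MYLPF encode the essential and the regulatory light chain of fast myosin, whereas ACTA1 and CKM serve both fiber types.

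The study profiled the face of pouch young on the day of birth, under 24 hours old. Chromatin immunoprecipitation and sequencing (ChIP-seq) for H3K4me3, a mark of active promoters, and for H3K27ac, which active enhancers carry as well, was done in 2 replicates, with total DNA of each pool as input. The labels give pools of 26 and 27 heads, and the study's methods give a somewhat smaller total. Bulk RNA was sequenced in 3 libraries, each a pool of 2 young, called FP1, FP2 and FP3 here as in the count table. All samples are of 1 tissue and 1 age, with no treatment and no second genotype, and every value is a mixture over all cell types of the face. In bulk RNA, fewer cells of a type and less RNA per cell cannot be told apart.

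The RNA libraries held between 16096971 and 17419099 counts, and every member had 735 counts or more in each of them. Levels are given in TPM, a unit that divides counts by exon length and by the library total. The peak lists gave 108146 H3K4me3 and 148724 H3K27ac peaks that were found in both replicates, at a q-value under 0.05 and with 50% of the length of either peak shared. The enrichment of a peak is its fold over input at the summit, its highest point. The lists give no read numbers, so the depth behind an enrichment is unknown.

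The labelled tissue carried transcripts of skeletal muscle. Of the 6 skeletal muscle markers, MYOD1, MYOG, DES, ACTA1 and CKM stood over 1 TPM in all libraries. Their summed level was 8968, 7544 and 10481 TPM in FP1, FP2 and FP3. ACTA1 and CKM are members chosen by their levels, and they are part of that sum. Outside the members, DES stood at 1292, 1224 and 1502 TPM, MYOD1 at 226, 244 and 313 TPM and MYOG at 40.2, 39.5 and 70.7 TPM. The sixth marker, the titin gene TTN, was listed at 0 counts in all 3 libraries. The models were carried over from another species, and whether a 0 reflects the transcript or its model was not tested, so no absence of titin RNA is read from it. Of the cardiac markers, 9 of 10 were analysed and 3 stood over 1 TPM, namely TNNT2, NKX2-5 and TNNI3, with a summed level of 408, 367 and 809 TPM over the list. The heart genes MYL7 and RYR2 were listed at 0 counts in all 3 libraries as well, with the same limit, and MYL2, NPPA and NPPB at 3 counts or fewer over the 3 together. Of the 8 smooth muscle markers, 5 were analysed, with a summed level of 777, 640 and 471 TPM, led by TAGLN, ACTA2 and CNN1.

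TNNT3, the fast troponin T gene, lies on the plus strand of scaffold00017 of the study's dunnart assembly, from 51292592 to 51310388, with 11 exons. Its level was 6360 TPM in FP1, 4936 TPM in FP2 and 6928 TPM in FP3 (mean 6074 ± 1026, SD, n = 3). Among the models with a symbol its rank by mean level was 5. For the slow counterpart no level and no fast to slow ratio of troponin T is given. RefSeq's dunnart annotation (ASM4859323v1) places TNNT1 between TNNI3 and PPP1R12C, and the only model between those genes in the count table, LOC116422944, stood at 0.294, 0.0894 and 0.0546 TPM. Whether that model corresponds to TNNT1 was not tested. The cardiac troponin T gene TNNT2, which immature skeletal muscle also uses, stood at 332, 292 and 644 TPM, so that TNNT3 exceeded it 19.1, 16.9 and 10.8 times.

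TNNI2, the fast troponin I gene, lies upstream of TNNT3 on the same strand of scaffold00017, from 51230739 to 51233117, with 5 exons. Its level was 4657 TPM in FP1, 3445 TPM in FP2 and 4960 TPM in FP3 (mean 4354 ± 802, SD, n = 3). FP3 was highest and FP2 lowest, the same order as for TNNT3. The slow gene TNNI1 lies on the plus strand of scaffold00093, from 5411622 to 5420524, with 6 exons, and its level was 151 TPM in FP1, 149 TPM in FP2 and 63.3 TPM in FP3 (mean 121 ± 49.9, SD, n = 3). FP1 and FP2 were close together here, and FP3, the highest library for the fast gene, was the lowest.

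The ratio of TNNI2 to TNNI1 within a library was therefore 30.9 in FP1, 23.2 in FP2 and 78.3 in FP3 (mean 44.1 ± 29.9, SD, n = 3). TNNI2 exceeded TNNI1 in 3 of 3 libraries. FP3 stood well above the others, and without it the mean ratio was 27.0. A ratio within a library does not depend on how libraries are scaled against each other. It does depend on the exon lengths of the models, since TNNI1 spans 2607 bp of exon and TNNI2 915 bp, and the ratio of counts not divided by length had a mean of 15.5.

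TNNC2, the fast troponin C gene, lies on the minus strand of scaffold00002, from 329118022 to 329123126, with 6 exons. Its level was 5857 TPM in FP1, 4612 TPM in FP2 and 7741 TPM in FP3 (mean 6070 ± 1575, SD, n = 3). TNNC1, the slow and cardiac gene, lies on the minus strand of scaffold00015, from 19677766 to 19702388, with 7 exons, and stood at 170 TPM in FP1, 165 TPM in FP2 and 124 TPM in FP3 (mean 153 ± 25.2, SD, n = 3). Once more FP3 was the highest library for the fast gene and the lowest for the slow one. The ratio of TNNC2 to TNNC1 was 34.5, 27.9 and 62.3 (mean 41.6 ± 18.3, SD, n = 3), and the mean without FP3 was 31.2. FP3 led both ratios, and FP2 was lowest in both.

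MYL1, the essential light chain of fast myosin, lies on the plus strand of scaffold00001, from 22954332 to 22970892, with 7 exons. Its level was 7118 TPM in FP1, 6771 TPM in FP2 and 8033 TPM in FP3 (mean 7307 ± 652, SD, n = 3), the highest mean of the 9 genes and rank 3 of the 14158 models with a symbol. It also varied least among the members, with a coefficient of variation of 8.92% against 41.3% for TNNI1. MYLPF, the regulatory light chain, lies on the plus strand of scaffold00004, from 41194308 to 41201397, with 9 exons, and stood at 5076, 4612 and 6244 TPM (mean 5311 ± 841, SD, n = 3). Both light chains followed the order of the fast troponins over the libraries. MYL1 exceeded the embryonic and atrial light chain gene MYL4 4.81, 5.13 and 4.29 times.

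ACTA1 lies on the plus strand of scaffold00020, from 7425564 to 7430595, with 7 exons. Its level was 4083 TPM in FP1, 3213 TPM in FP2 and 4435 TPM in FP3 (mean 3910 ± 629, SD, n = 3). The cardiac actin gene ACTC1, which early skeletal muscle also expresses, stood at 50.2, 50.5 and 56.7 TPM, so that ACTA1 exceeded it 81.3, 63.7 and 78.2 times. These ratios depend on the exon lengths of the 2 models. Summed over the libraries, ACTA1 had 148016 counts and ACTC1 608, and whether the ACTC1 model is complete was not tested. Actin genes share much of their coding sequence, and the effect of reads that map to several of them on these levels was not tested. CKM, which regenerates ATP at the myofibril, lies on the minus strand of scaffold00121, from 657342 to 667911, with 7 exons, and stood at 3327, 2823 and 4161 TPM (mean 3437 ± 676, SD, n = 3). The mitochondrial creatine kinase of striated muscle, CKMT2, stood at 291, 232 and 416 TPM.

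**Figure D1:**
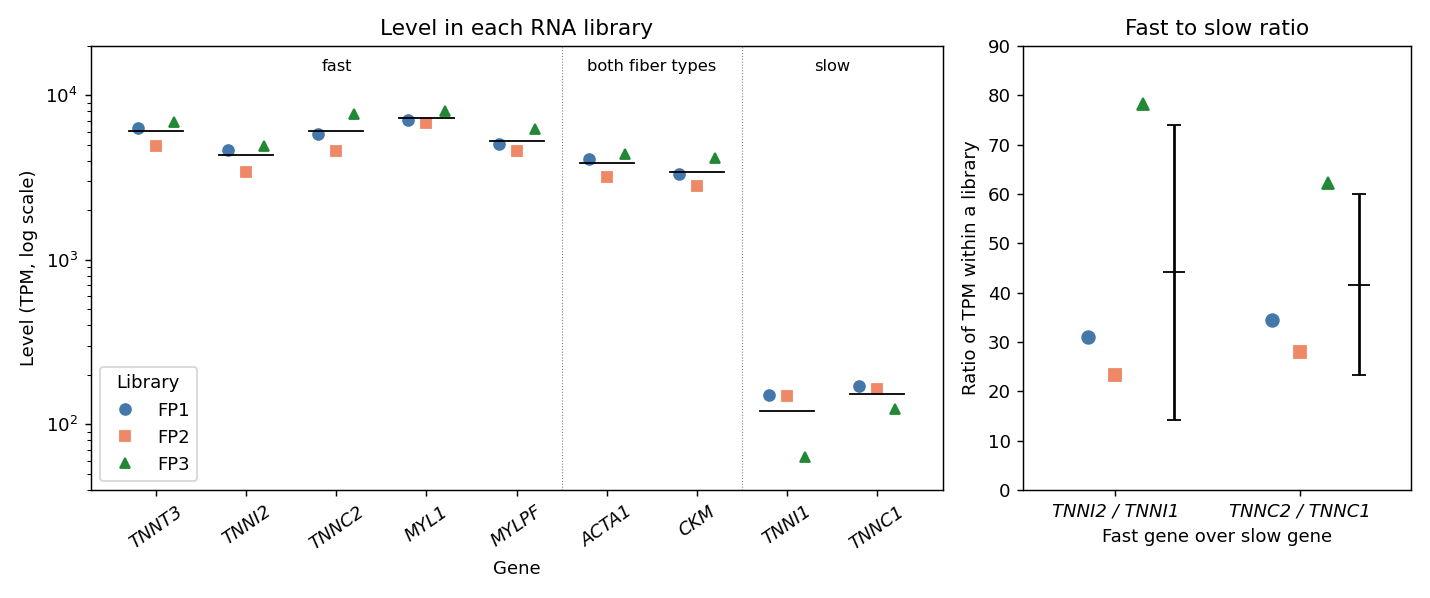
Left, level of each gene in TPM on a log scale in the libraries FP1, FP2 and FP3, with a black line at the mean. Right, ratio of the fast to the slow gene within each library, with the mean and SD of the 3 libraries at the right of each group. The 7 fast or shared genes lie between 2823 and 8033 TPM and the 2 slow genes between 63.3 and 170 TPM, and FP3 has the highest ratio in both pairs.

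By mean level the order was MYL1, TNNT3, TNNC2, MYLPF, TNNI2, ACTA1, CKM, TNNC1 and TNNI1. Each neighboring pair in this order overlapped in the range of its 3 libraries except CKM and TNNC1, which were separated by the gap from 2823 down to 170 TPM. The 9 genes together made up 3.67% of all TPM, the 5 fast genes 2.91% and the 2 slow genes 0.0274%.

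Over the libraries the members fell into 2 patterns. All 7 fast or shared genes were highest in FP3 and lowest in FP2, whereas TNNI1 and TNNC1 were lowest in FP3 and highest in FP1. Among the 12250 models over 1 TPM in all libraries, 11.8% were highest in FP3 and 49.2% were lowest there. Since the levels in each library were among the values that chose the members, nothing is read from the difference. Scaling by the TMM factors of edgeR, which raised FP3 by 0.12 on the log2 scale, left the highest and the lowest library of each of the 9 genes as they were. With that scaling 25.0% of models were highest in FP3 and 32.5% lowest. FP3 was 1.40 times FP2 for TNNT3, 1.68 times for TNNC2 and 1.19 times for MYL1, against 0.426 times for TNNI1 and 0.751 times for TNNC1.

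Set against desmin (DES), an intermediate filament of all striated muscle, the 5 fast genes spread less over the libraries than the slow ones, with the highest library at most 1.37 times the lowest, against 2.88 times for TNNI1 and 1.63 times for TNNC1. MYL1 was 5.51, 5.53 and 5.35 times DES, and TNNT3 was 4.92, 4.03 and 4.61 times. TNNI1 was 0.117, 0.121 and 0.0422 times DES, and TNNC1 was 0.131, 0.135 and 0.0827 times. DES was itself highest in FP3 and lowest in FP2, at 1292, 1224 and 1502 TPM, as the fast genes were. A lowest ratio in FP3 was therefore fixed for the slow troponins by their levels. The smaller spread of the fast genes likewise follows in part from the order they share with DES. Neither adds to the levels given above. The summed level of the cardiac markers was highest in FP3, through TNNT2 at 644 TPM and NKX2-5 at 163 TPM there, whereas TNNI3, MYBPC3, MYL2, NPPA and NPPB were highest in FP1. The summed level of the smooth muscle markers was lowest in FP3, although CNN1 was highest there, at 38.5, 27.3 and 45.3 TPM. The part of either list in the order of the members was not tested.

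Other genes of fast fibers shared the order of the fast members in part. Of 16 listed outside the members, 14 were analysed, 11 stood over 1 TPM, and of these 8 were highest and 3 lowest in FP3. Among all models over 1 TPM, 11.8% were highest and 49.2% lowest there. PGAM2, a muscle enzyme of glycolysis, stood at 1028, 761 and 1262 TPM. PYGM, the muscle glycogen phosphorylase, stood at 756, 672 and 1178 TPM, and ATP2A1, the calcium pump of fast fibers, at 801, 573 and 911 TPM. PGAM2, PYGM and ATP2A1 were highest in FP3 and lowest in FP2. The 3 genes lowest in FP3, named after their values were seen, were highest in FP1 as TNNI1 and TNNC1 were. They are MYBPC2, the fast myosin binding protein gene, at 126, 106 and 98.1 TPM, ACTN3, an actinin of fast fibers, at 146, 115 and 108 TPM, and TMOD4, which caps thin filaments, at 29.3, 19.6 and 18.2 TPM.

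Few genes known from slow fibers outside the members shared the place of TNNI1 and TNNC1. Of 13 listed, 10 were analysed, 9 stood over 1 TPM, 7 were highest in FP3 and 1 was lowest there, beside 11.8% and 49.2% of all models over 1 TPM. FHL1, a LIM domain protein of muscle, stood at 1091, 920 and 1580 TPM, the calcium pump gene ATP2A2 at 820, 813 and 1227 TPM and the Z disc protein gene CSRP3 at 595, 403 and 611 TPM. ATP2A2 and FHL1 are also active outside slow fibers. The 1 gene lowest in FP3, the slow light chain gene MYL3, is named after its values were seen and stood at 12.8, 8.92 and 5.57 TPM, so that MYL1 exceeded it 556, 759 and 1443 times.

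Most analysed genes in the lists of the thin filament, of the Z disc and M line and of muscle energy were highest in FP3, as the fast members were. Among all models over 1 TPM 11.8% were highest there, or 25.0% with TMM scaling. FP2 was not the lowest library for all of the listed genes. These lists share genes with the fast and slow lists above, such as TPM3, CSRP3 and PYGM, so their counts are not separate. In the thin filament list all 10 genes were analysed, ACTA1 among them, and 9 were highest in FP3, with TPM1 at 1818, 1611 and 2544 TPM, TPM2 at 1128, 1030 and 1265 TPM and TPM3 at 210, 208 and 236 TPM. In the Z disc and M line list 12 of 15 were analysed and 9 were highest in FP3, led by CSRP3, MYOZ2 at 358, 319 and 642 TPM and LDB3 at 295, 235 and 502 TPM. In the list of muscle energy genes 11 of 13 were analysed, CKM among them, and 8 were highest in FP3, with LDHA, the lactate dehydrogenase of glycolytic cells, at 950, 921 and 1240 TPM beside PGAM2 and PYGM.

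Developmental muscle genes and regulators were present as well. Of the 11 developmental genes outside the members 9 were analysed and all 9 stood over 1 TPM, led by MYL4 at 1481, 1320 and 1874 TPM, DES at 1292, 1224 and 1502 TPM and TNNT2. Of 22 regulators of fiber type and muscle 20 were analysed and 18 stood over 1 TPM. MYOD1, a factor that commits cells to muscle, stood at 226, 244 and 313 TPM, SRF, which drives actin genes, at 148, 145 and 170 TPM and MYF6 at 59.7, 78.9 and 118 TPM.

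H3K4me3 was found in both replicates within 1 kb of the annotated TSS of 5 of the 9 genes, TNNT3, TNNI2, MYLPF, ACTA1 and CKM. TNNC2, MYL1, TNNI1 and TNNC1 had none. Over all gene models 67.7% had such a peak, and among the 1455 models of mean level over 100 TPM, a limit that all 9 members pass, it was 93.4%. H3K27ac stood there at 6 genes, the same 5 and TNNC2, against 71.5% of all models and 94.5% of those over 100 TPM. Since the peaks of both marks were among the values that chose the members, nothing is read from the difference for either mark.

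The strength of these peaks, which was among the values that chose the members, is set here beside that of other models. In models over 100 TPM with a peak, the median enrichment at the TSS, averaged over the replicates, was 63.7 for H3K4me3, and 10% of them lay under 21.6. The mean enrichment was 83.8 at MYLPF, 18.0 at ACTA1, 15.3 at CKM, 9.84 at TNNT3 and 8.28 at TNNI2. At MYLPF and TNNT3 the summits lay nearer to the TSS of another model, as given below, so these values are not of the member alone. ACTA1, CKM, TNNT3 and TNNI2 thus lay under that limit. In the 132 models over 1000 TPM with a peak, to which all 5 genes belong, the median was 64.2 and 10% lay under 9.29, so that in this closer match only TNNI2 lay under the limit and the other 4 above it. For H3K27ac, with a median of 36.6 in models over 100 TPM, the values were 34.8 at MYLPF, 13.4 at CKM, 12.6 at TNNT3, 10.5 at TNNI2, 8.89 at TNNC2 and 6.06 at ACTA1.

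**Figure D2:**
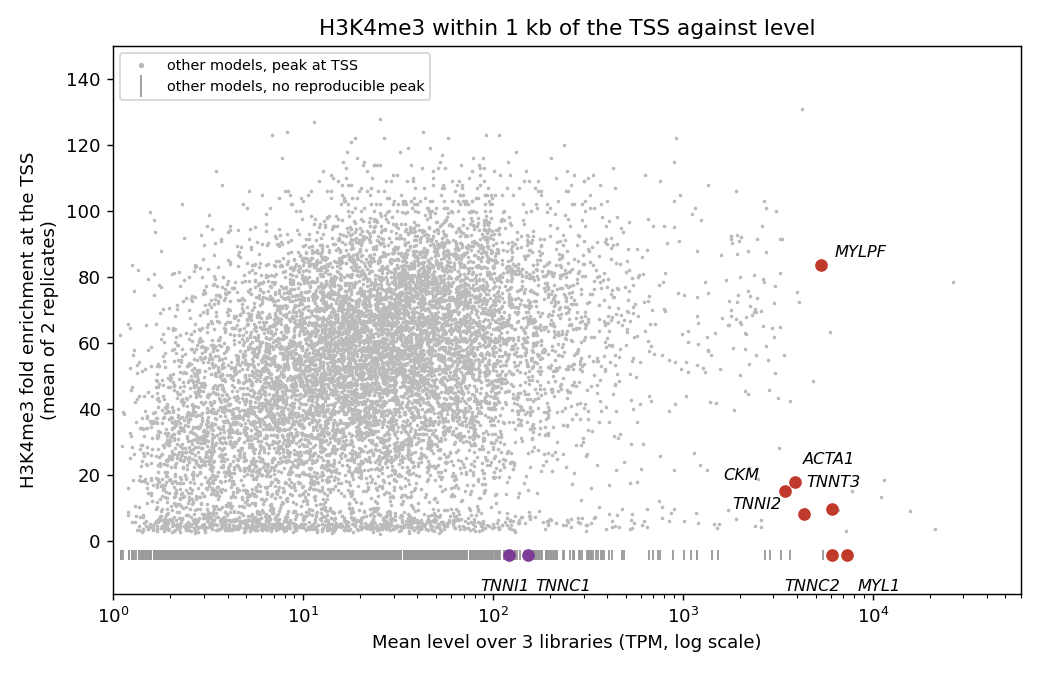
H3K4me3 fold enrichment of the strongest reproducible peak within 1 kb of the TSS (mean of 2 replicates) against mean level in TPM on a log scale, for the 12250 models over 1 TPM in all libraries. Gray points are models with a peak, ticks below 0 are models with none, and the 9 members are colored, the slow genes in purple. MYLPF at 83.8 lies among the other abundant models, the 4 other members with a peak lie at 18.0 or less, and 4 members have none. The summits of the MYLPF peak are nearer to the TSS of TBC1D10B, and those of the TNNT3 peak to that of LOC116419922.

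ACTA1 carried the plainest promoter of the group. Its H3K4me3 peak ran from 1184 bp upstream of the TSS to 4866 bp downstream in replicate 1, over all 7 exons, with an enrichment of 15.8 there and 20.2 in replicate 2. The summits lay 143 and 158 bp upstream of the TSS. It was the sole reproducible H3K4me3 peak in the gene or within 50 kb of it, and no other model starts in that range. H3K27ac was weaker at the TSS, at 4.55 and 7.56.

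MYLPF shared its promoter. The H3K4me3 peak ran from 3725 bp upstream to 1942 bp downstream, with an enrichment of 74.6 and 93.0. TBC1D10B, a gene of the opposite strand at 53.0, 60.5 and 58.7 TPM, starts 205 bp upstream of MYLPF, inside the same peak. The summits lay 584 and 617 bp upstream of the MYLPF start, on the side of TBC1D10B and 379 and 412 bp from its TSS. Which share of the mark belongs to which gene cannot be told apart in these lists.

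CKM had a peak from 3678 bp upstream to 349 bp downstream of its TSS, with an enrichment of 13.7 and 17.0. Its summits lay 1210 and 1288 bp upstream, beyond the first kilobase. No other model starts there, the nearest being KLC3, 34642 bp upstream on the other strand. The strongest H3K4me3 peak within 50 kb of CKM, at 91.3 and 87.4, stood at the TSS of MARK4, whose level was 109, 137 and 132 TPM.

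TNNI2 and TNNT3 lie 59.5 kb apart with 1 model, LOC116419922, between them, and both sat in wide stretches of H3K4me3. Reproducible H3K4me3 peaks covered 71.2% of the TNNI2 span with 50 kb on either side and 82.1% of that of TNNT3, against a median of 16.9% in models over 100 TPM. H3K27ac covered 79.8% and 88.6%, against a median of 22.4%. At TNNI2 the peak over the TSS ran from 3851 bp upstream to 192 bp downstream, with an enrichment of 7.09 and 9.46 and summits 2304 and 1349 bp upstream. At TNNT3 it ran from 5661 bp upstream to 1498 bp downstream, with an enrichment of 8.27 and 11.4. Its summits lay 4595 and 4483 bp upstream, nearer to the TSS of LOC116419922, which starts 5806 bp upstream of TNNT3 on the same strand and stood at 900, 776 and 1012 TPM. That model is highest in FP3 and lowest in FP2, as TNNT3 is.

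The strong H3K4me3 near this pair lay away from both annotated starts. A peak of 6.75 kb between the genes, with an enrichment of 37.6 and 49.3, had its summits 27.3 kb downstream of the TNNI2 start and 34.6 kb upstream of the TNNT3 start in both replicates, and no annotated TSS fell in it. H3K27ac over it reached 47.7 and 50.9, the strongest H3K27ac in the range of TNNI2. A second peak, with 49.6 and 56.8, had summits 45.1 kb upstream of TNNI2, 30240 bp or more from the nearest annotated TSS, that of LOC116419915. A further peak, with 34.1 and 69.2, began in the last intron of TNNT3 in replicate 1, and farther inside the gene in replicate 2. It ran past the end of TNNT3. Its summits, beyond the gene, lay 235 and 241 bp from the TSS of MRPL23, a mitochondrial ribosomal protein gene at 191, 145 and 127 TPM. SYT8 and LOC116419915, upstream of TNNI2, stood under 10 TPM in every library.

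TNNC2 had no H3K4me3 at its TSS in both replicates, while H3K27ac stood there at 11.7 and 6.06. In replicate 2 alone a short H3K4me3 peak with an enrichment of 3.92 lay across the TSS, with its summit 50 bp upstream. The reproducible H3K4me3 inside the gene lay 3059 to 4907 bp downstream of the TSS, over exons 2 to 6 in replicate 1 and short of exon 6 in replicate 2, with 4.92 and 7.83 and summits at 3235 and 3416 bp. The nearest start of another model, LOC100915128, lies 5700 bp downstream of the TNNC2 start, past the end of the gene, and carried a separate peak with 19.6 and 29.0. That model stood at 10.4, 18.3 and 11.9 TPM. The next, UBE2C, a gene of dividing cells at 219, 131 and 71.7 TPM, starts at 10150 bp and had a peak with 44.1 and 68.3.

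TNNC1 had its first exon, of 57 bp, 18.6 kb apart from the second, and no peak of either mark within 1 kb of that first exon's start. A reproducible H3K4me3 peak with 8.0 and 7.78 lay from 16796 to 19914 bp downstream, with its summits at 18873 and 18787 bp, and took in exon 2, which lies from 18682 to 18785 bp. H3K27ac with 9.54 and 5.38 lay over the same exon. A weaker H3K4me3 peak, with 4.25 and 6.85, lay over exon 3 in replicate 1 and ended short of that exon in replicate 2. Another, with 4.92 and 5.22, lay over exons 5 to 7. The strongest H3K4me3 inside the gene, with 51.2 and 79.2, lay in the first intron at the TSS of NISCH, a gene of the opposite strand at 40.8, 43.8 and 36.3 TPM, with summits 414 and 428 bp from it. The models of TNNC1 and NISCH overlap in span but share no base of exon.

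TNNI1 had no reproducible H3K4me3 in the gene. A short peak in replicate 1 alone, from 5072 to 5389 bp downstream of the TSS and over exon 5, had an enrichment of 3.59. H3K27ac with 6.46 and 4.30 lay from 1025 to 2123 bp downstream of the TSS, over exon 2. The strongest H3K4me3 within 50 kb, with 27.8 and 30.3, lay at the TSS of LAD1, 20129 bp downstream, whose level was 47.7, 91.4 and 96.7 TPM. The nearest reproducible H3K4me3 upstream, with 5.39 and 4.93, ended 20966 bp from the TSS, and no other model starts there. TNNT2 follows on the same strand 48.0 kb past the end of TNNI1, with H3K4me3 of 2.75 and 5.91 at its TSS.

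MYL1, the most abundant of the 9, had no reproducible H3K4me3 in the gene or within 50 kb of it. A peak in replicate 1 alone, from 4 to 347 bp downstream of the TSS, had an enrichment of 2.74. H3K27ac was limited to a pair of short peaks with summits 33.7 and 31.7 kb upstream in replicate 1, with 4.84 and 3.40 for the farther one and 2.75 and 2.98 for the nearer. No other model starts within 50 kb. Among the 1455 models over 100 TPM, 14 had no reproducible H3K4me3 within 50 kb, which is 0.962%.

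**Figure D3:**
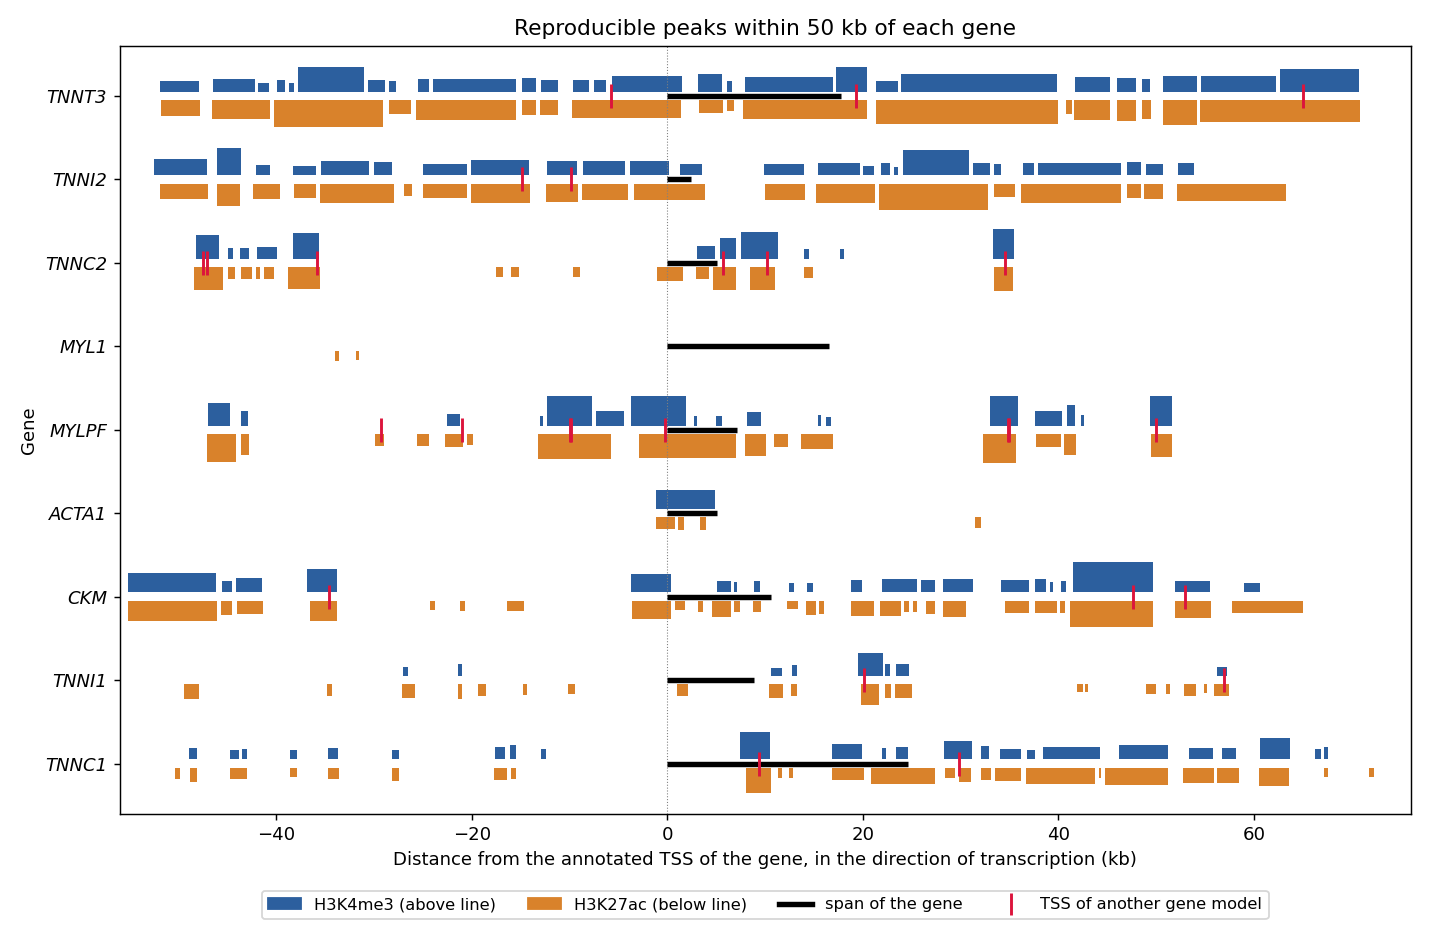
Peaks of H3K4me3 (blue, above the line) and H3K27ac (orange, below) found in both replicates, against distance in kb from the annotated TSS of each gene, along its direction of transcription. Bar height grows with the log2 of the lower fold enrichment of the 2 replicates plus 1, black bars are gene spans and red ticks the TSS of other models. TNNT3 and TNNI2 are covered by both marks over most of the range, and MYL1 has 0 H3K4me3 peaks.

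**Figure D4:**
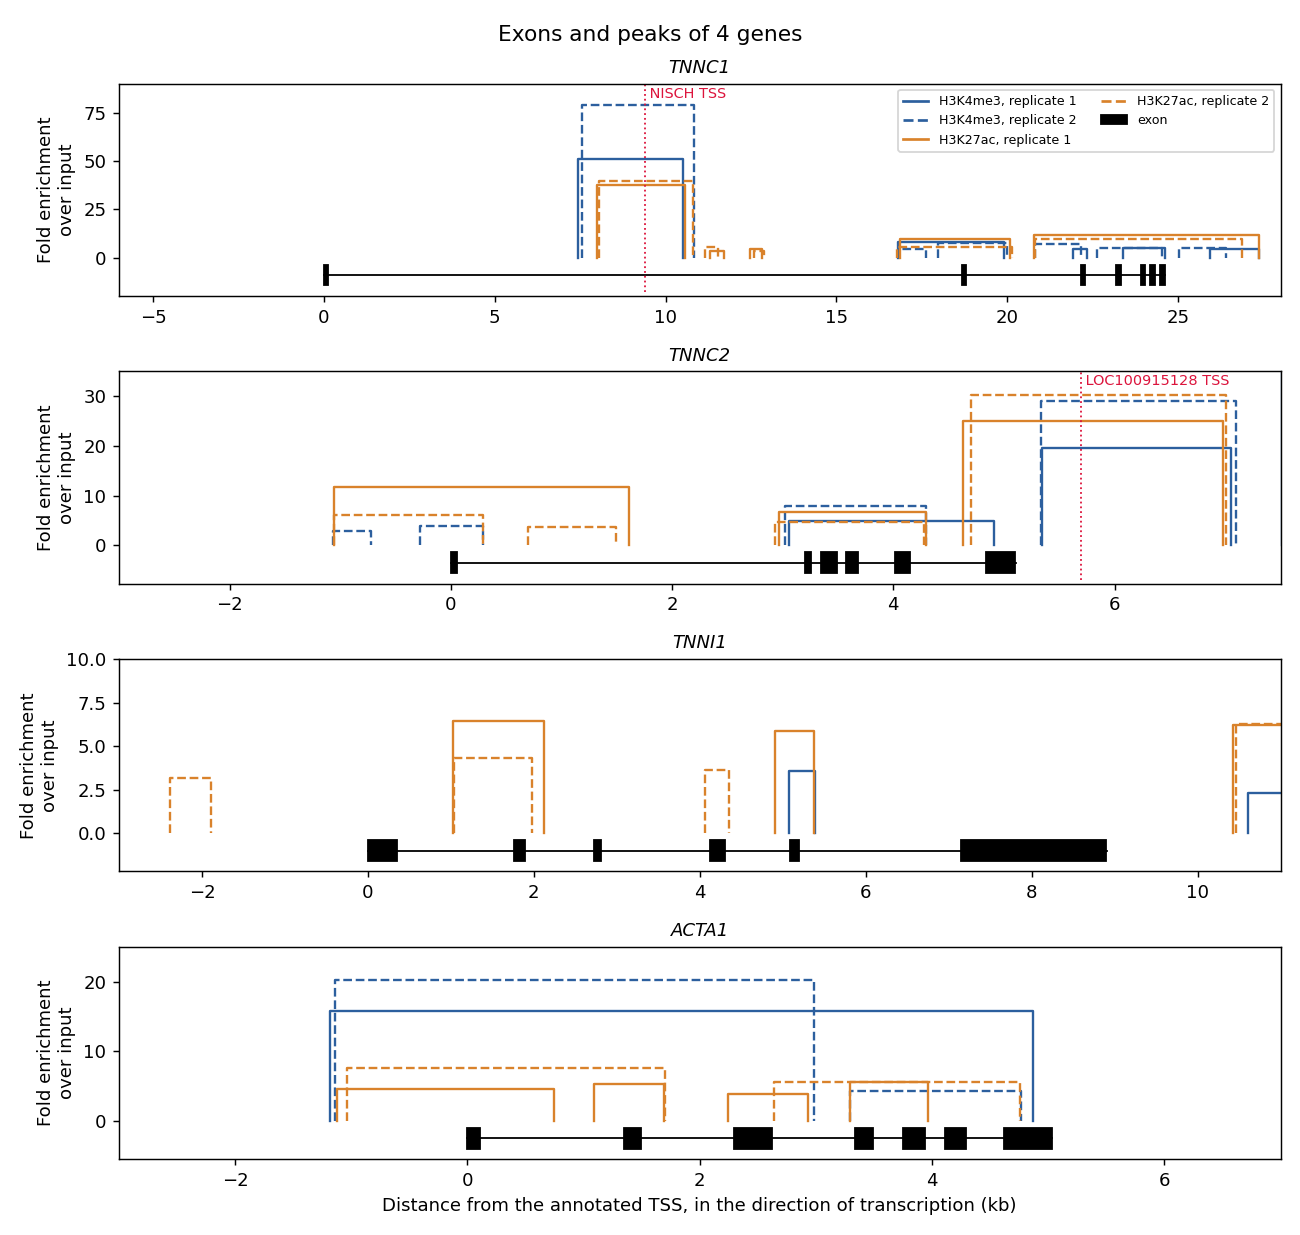
Exons (black) and peaks of TNNC1, TNNC2, TNNI1 and ACTA1, drawn from one edge of a peak to the other at the height of its fold enrichment over input, for each replicate, against distance in kb from the annotated TSS. H3K4me3 lies over exon 2 of TNNC1 and over exons 2 to 5 of TNNC2 (to exon 6 in replicate 1), at neither of their first exons in both replicates, and over the start of ACTA1.

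The position of the mark relative to the annotated start thus differed among the members. In ACTA1 and MYLPF both summits lay within 1 kb of the TSS, as in 77.3% of models over 100 TPM, though those of MYLPF were nearer to the TSS of TBC1D10B. In CKM, TNNI2 and TNNT3 the peak covered the TSS but its summits lay more than 1 kb upstream. In TNNC1 and TNNC2 reproducible H3K4me3 lay over later exons and not at the annotated start, without it being tested which start those peaks belong to. Peaks over later exons were not particular to this pair. CKM had one with 6.75 and 4.24, TNNI2 one with 4.26 and 6.52 and MYLPF one with 4.72 and 3.28, beside the peak at the TSS. In TNNT3 a peak inside the gene, with 11.5 and 11.7, exceeded the one at the TSS, with 8.27 and 11.4. In TNNI1 no H3K4me3 peak in the gene, and in MYL1 none within 50 kb, was found in both replicates.

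Other abundant transcripts shared the lack of H3K4me3 at the annotated TSS. Outside the members, and apart from mitochondrial and ribosomal protein genes, the 5 of highest level with a symbol were SLN, DYNLL1, CSTA, COL3A1 and POSTN. SLN, which encodes sarcolipin, an inhibitor of the muscle calcium pump, stood at 2747, 2135 and 3742 TPM and like MYL1 had no reproducible H3K4me3 within 50 kb and 2 H3K27ac peaks there. DYNLL1, a dynein light chain gene, stood at 1395, 1090 and 1084 TPM, with 18 H3K4me3 peaks within 50 kb. CSTA, of keratinocytes, had a mean of 1013 ± 424 TPM, COL3A1, a collagen gene, 884 ± 386 TPM and POSTN, of connective tissue, 756 ± 227 TPM (SD, n = 3), with 5, 3 and 3 such peaks.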

How the data were processed

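RNA of 3 pools of newborn faces and ChIP of 2 replicates per mark were analysed. The deposited counts per gene were made by the authors in Subread's featureCounts (2.0.1) with a reverse-strand setting, from read pairs cleaned in Trimmomatic (0.39) and mapped by HISAT2 (2.21). Gene models came from the Tasmanian devil and were carried over to the study's own dunnart assembly by Liftoff. For ChIP, cutadapt (1.9.1), Bowtie2 (2.3.5.1), SAMtools (1.9) and Picard (2.23.1) preceded peak calling by MACS2 (2.1.1) on single replicates. Each deposited peak carries its fold enrichment, which is a ratio to input, together with p-value and q-value on a −log10 scale. Versions are those of the submitters' processing notes.

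TPM was derived over 21692 models from their counts and summed exon lengths, leaving out 11 on damaged lines. Peaks with q under 0.05 were intersected with bedtools (2.31.1), and tables were made with Python (3.11.15), numpy (2.4.6) and pandas (2.3.3). TMM factors came from edgeR (4.0.16). Overlap, distance and TPM were tested on simulated data. RNA depth ran from 16096971 to 17419099 counts, and the SD over libraries is the precision given. Columns of the count table carry no replicate number of the labels, so libraries keep the column names. Labels do not say how the pools were formed beyond their number.

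The members, the gene lists and the alternatives were chosen with earlier results of these data known. Named genes are the members, the 3 most abundant non-members of each list, list genes at 0 counts, neighbors with a TSS within 50 kb of a member, and the 5 most abundant symbols without H3K4me3 within 1 kb of the TSS, mitochondrial and ribosomal protein genes aside. Position by summit was added after the data were seen.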

Additional observations from a re-analysis of the deposited data

How the results depend on the processing

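No paired analysis was possible because no groups are compared and the RNA columns carry no replicate number. The 2 ratios stayed within 1 SD under the alternatives run. When 1 library was left out, means ran from 27.0 to 54.6 for TNNI2 to TNNI1 and from 31.2 to 48.4 for TNNC2 to TNNC1. Without division by length the mean of the first ratio was 15.5, below its lowest library by TPM, at 23.2. The SD of that ratio was wide, at 29.9 on a mean of 44.1, so 1 SD is a loose limit for it. The summed mean level of the 9 genes, 36738 TPM, was 20194 CPM without division by length, 44221 TPM over models with a symbol only, 37086 with TMM scaling and from 33762 to 39744 TPM with 1 library left out. The 5 genes with H3K4me3 at the TSS stayed 5 at both stricter q limits, at both other overlaps and both other windows, and were 6 in either replicate alone, MYL1 being added in replicate 1 and TNNC2 in replicate 2. By the summit within 1 kb, chosen after seeing the data, they were 2 in replicate 1 and 2 in replicate 2. For H3K27ac the 6 genes were 3 by the summit of replicate 1, 4 by that of replicate 2, and from 5 to 7 under the other q limits, overlaps, windows and single replicates. H3K4me3 below the q limit is not seen in the lists, which hold no reads, and the number of RNA libraries limits the precision of levels.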

Other observations

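Of the listed myosin heavy chain genes of skeletal muscle only MYH2 and MYH4 were analysed here, named after their values were seen, and the embryonic and perinatal genes MYH3 and MYH8 and the genes MYH1, MYH13, MYH7 and MYH7B were not, so no total level of heavy chain RNA is given. MYH2 was at 0.0744, 0.317 and 0.207 TPM and MYH4 at 0.479, 0.381 and 0.185 TPM in FP1, FP2 and FP3, with 28 and 52 counts over the 3 libraries. Whether these low counts reflect the transcripts or their models, carried over from another species, was not tested, so no lack of MYH2 or MYH4 RNA is read from them. Neither had a reproducible H3K4me3 or H3K27ac peak within 1 kb of its TSS. MB, the oxygen store of oxidative muscle, was at 7.97, 4.29 and 8.38 TPM, below every member in every library. The calcium pump genes of fast and slow fibers, ATP2A1 and ATP2A2, were near each other, with ratios of 0.978, 0.705 and 0.742. ATP2A2 is also active outside slow fibers, so these ratios are not of the same kind as those of the troponin pairs.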
